A study of Mus musculus with 4 samples.

Results

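The Tcrb V segments are the short gene segments from which the variable part of the T cell receptor beta chain is chosen. The 34 Trbv segments from Trbv1 to Trbv30 in the mm10 interval 40891296 to 41281990 of chromosome 6 were taken, of 547 annotated V segments over all antigen receptor loci. Trbv31, which lies beyond the constant genes, was left out. Of the 34 segments, 21 are annotated as V segments and 13 as V pseudogenes. They were chosen by position, not by a measured value, though earlier results of these data were known.

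In beta chain rearrangement, the RAG recombinase joins 1 V segment to a D-J unit that has already formed. RAG cuts at a recombination signal sequence, which flanks the side of each V segment that faces the D segments, while the promoter of the segment lies on its other side. This joining takes place in double-negative thymocytes, and further V joining at Tcrb is held back once a beta chain is made and the cells become double-positive, when the alpha chain locus Tcra is rearranged. Trypsinogen genes, which serve the pancreas, lie among and next to the Tcrb V segments.

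ATAC-seq, which marks open chromatin through the adapters that a transposase leaves there, was run on thymocytes of wild-type C57BL/6J mice 5 to 7 weeks old, sorted ex vivo. The 2 DP samples were CD4+CD8+ double-positive T cells, and the 2 DN samples were CD4-CD8- double-negative T cells sorted as CD25+CD44-/+. The DP lists held 39718 and 70385 peaks, and the DN lists held 38808 and 33131. No read counts come with the lists, so their depth is unknown and a segment without a peak cannot be told apart from one with too few reads.

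Whether the 2 samples of a stage are from different animals is not stated in the labels, and p-values then measure only a spread that may be technical. With 2 lists per stage, an exact permutation test has 3 distinct splits and cannot go below p = 0.333. Marker genes were read as peaks within 1000 bp of the gene. The 5 DP markers given here (Cd4, Cd8a, Cd8b1, Rag1 and Satb1) all had a peak in both DP lists, against 3 and 1 of them in DN 1 and DN 2, and Cd8a and Cd8b1 had none in either DN list. The 6 DN-stage markers (Il2ra, Ptcra, Notch1, Notch3, Hes1 and Dtx1) had peaks at 5 and 6 genes in DP 1 and DP 2, against 4 in DN 1 and 0 in DN 2, so the DN 2 list lacked a peak even at Il2ra, which encodes the CD25 used in the sort. The part of these list differences in the results below was not tested.

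Peaks over the Tcrb V segments were fewer in DP than in DN lists. The interval held 9 and 13 peaks in DP 1 and DP 2, against 24 and 19 in DN 1 and DN 2. The DP and DN counts did not overlap, although DP 2 is the longest of the lists. The mean was 11 ± 2.83 in DP and 21.5 ± 3.54 in DN lists (SD, n = 2 each; exact two-sided permutation p = 0.333). Per 10000 peaks of a list these were 2.27 and 1.85 in DP, against 6.18 and 5.73 in DN lists. The peaks covered 3.9 and 6.5 kb of the interval in DP 1 and DP 2, against 11.3 and 7.45 kb in DN 1 and DN 2. Some peaks of a list overlapped each other, as in DN 2 at Trbv5, and were counted separately. The covered length does not repeat the bases they share. The neighbouring stretch of the same length before Trbv1 held 4 and 9 peaks in DP, against 3 and 5 in DN lists, and there the stages overlapped (exact permutation p = 0.667).

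**Figure D1:**
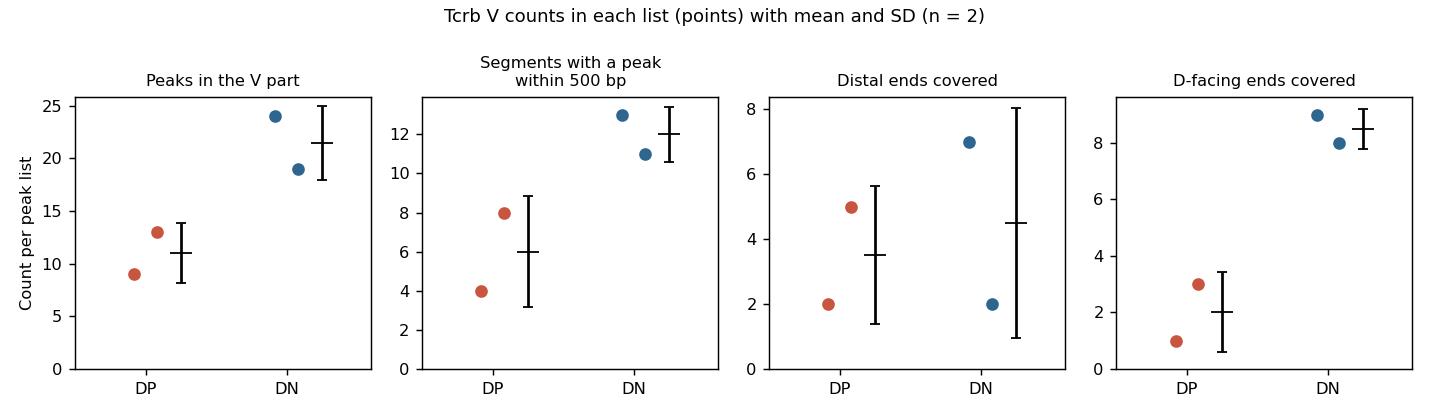
Counts per peak list for the Tcrb V part: peaks with their midpoint in the interval, segments with a peak within 500 bp, and segments whose distal end or D-facing end lies inside a peak. Points are the lists, DP left and DN right, and bars are the mean and SD (n = 2); the DP and DN lists are apart in every panel but that of distal ends.

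Most of the difference lay at the segments themselves. A segment was counted as held by a list when a peak overlapped it or lay within 500 bp. By this rule DP 1 and DP 2 held 4 and 8 of the 34 segments, against 13 and 11 in DN 1 and DN 2. The mean was 6 ± 2.83 in DP and 12 ± 1.41 in DN lists (SD, n = 2 each; exact permutation p = 0.333). Peaks of the interval that lay farther than 500 bp from any segment numbered 5 in each DP list, against 7 and 4 in DN 1 and DN 2. At the edge of the rule, a DN 1 peak 491 bp before Trbv16 counted, and peaks of DP 1, DP 2 and DN 1 that ended 606, 556 and 556 bp before Trbv2 did not.

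Few annotated pseudogenes had a peak. Of the 21 segments annotated as V segments, 16 had a peak within 500 bp in at least 1 list, against 1 of the 13 pseudogenes. That pseudogene was Trbv10, which a DN 1 peak of 800 bp (41091151 to 41091950) reached by its last bases. Trbv6 to Trbv11 are all pseudogenes, and no DP list nor DN 2 held any of these 6. The 5 other V segments without a peak in any list were Trbv13-1, Trbv14, Trbv15, Trbv21 and Trbv30. Trbv27 to Trbv29, beside Trbv30, are a second run of pseudogenes, while the remaining pseudogenes lie singly among V segments. Annotation and position thus overlap in part, and their share in the lack of peaks was not tested.

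**Figure D2:**
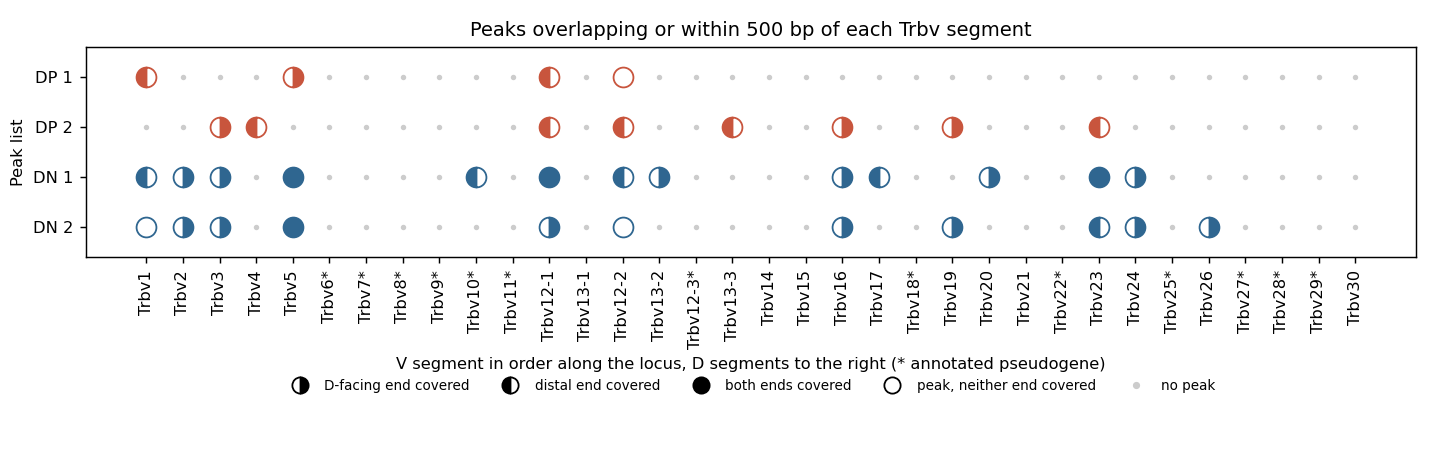
Each Trbv segment in order along the locus (columns) in each peak list (rows, DP above DN). Circles mark a peak overlapping the segment or within 500 bp and are filled on the side of the segment end that lies inside the peak; D-facing ends are filled at 1 and 3 segments in DP 1 and DP 2, against 9 and 8 in DN 1 and DN 2.

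The DP and DN lists stood apart at the D-facing end of the segments, a comparison chosen after the peaks had been seen. The D segments lie at higher coordinates than Trbv1 to Trbv30, which share the orientation of the D-J-C part, so the higher end of each segment is the one that faces them; the gene table itself gives no strand. This end lay inside a peak at 1 and 3 segments in DP 1 and DP 2, against 9 and 8 segments in DN 1 and DN 2. The mean was 2 ± 1.41 in DP and 8.5 ± 0.707 in DN lists (SD, n = 2 each; exact permutation p = 0.333). Taking the lists of a stage together, 4 segments were covered there in DP and 11 in DN lists, and each of the 4 was also covered in a DN list.

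The opposite, distal end did not separate the stages. It was covered at 2 and 5 segments in DP 1 and DP 2, against 7 and 2 in DN 1 and DN 2 (difference DP minus DN -1, exact permutation p = 1). The sign of that difference rested on single lists, with 0.5 without DP 1 and 1.5 without DN 1. In every other setting run it was negative. With ends counted within 100 bp of a peak it was -2.5, against -6.5 for D-facing ends. Within a list, D-facing ends minus distal ends came to -1 and -2 in DP 1 and DP 2, against 2 and 6 in DN 1 and DN 2, and these did not overlap (means -1.5 ± 0.707 and 4 ± 2.83, SD, n = 2 each; exact permutation p = 0.333). Peak widths in the interval were alike, with a median of 450 bp in each DP list, against 475 and 400 bp in DN 1 and DN 2.

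**Figure D3:**
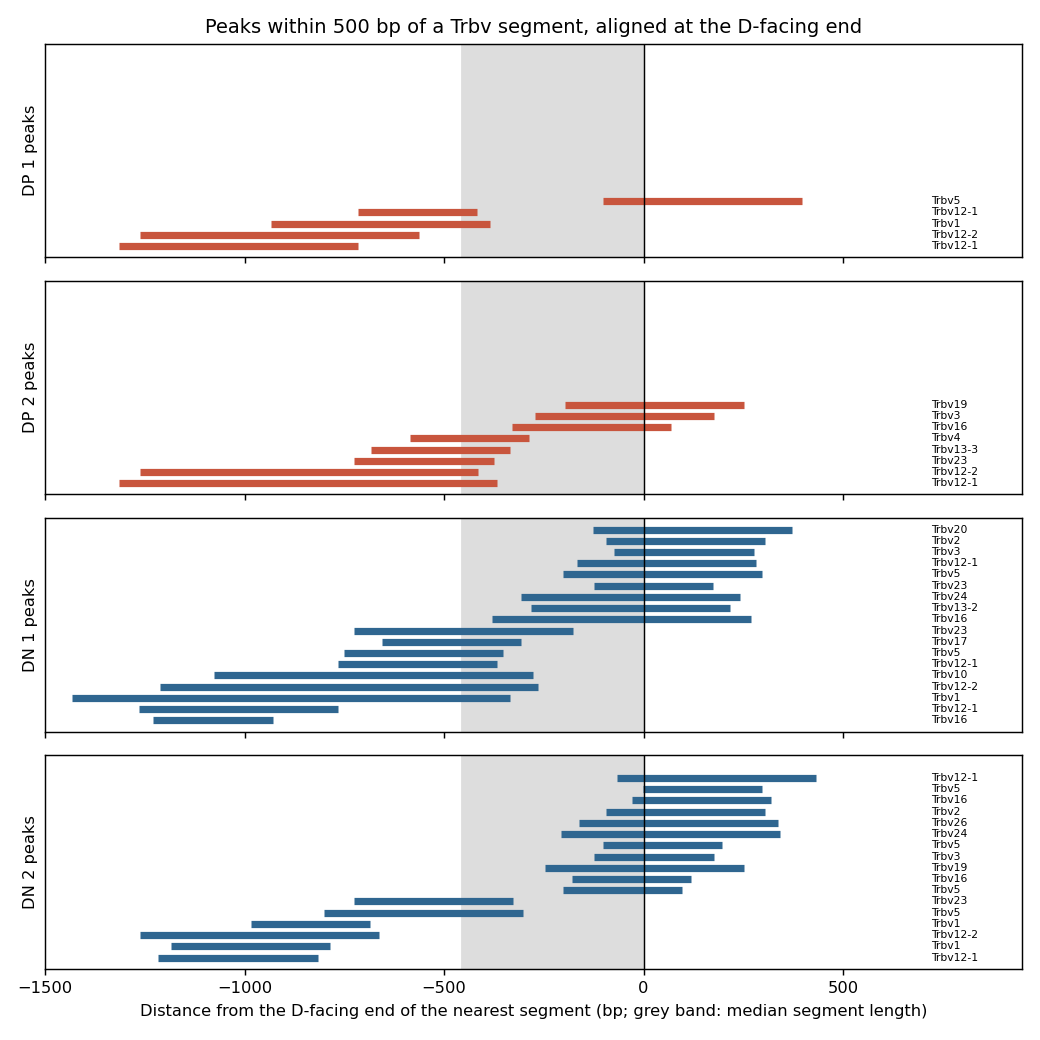
Every peak overlapping or within 500 bp of a Trbv segment, drawn to scale as a bar against the D-facing end of its nearest segment (x axis, bp, 0 at that end), by list with DP above DN. The grey band is the median segment length of 454 bp; 1 and 3 bars cross 0 in DP 1 and DP 2, while such bars make up the upper part of both DN panels.

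At 6 segments both DN lists covered the D-facing end: Trbv2, Trbv3, Trbv5, Trbv12-1, Trbv16 and Trbv24. At 3 of them, Trbv2, Trbv12-1 and Trbv24, neither DP list did, which is 8.82% of the 34 segments. The distal end was covered in both DN and neither DP list at 1 of the 34 (2.94%), Trbv5. By the same rule 0% of the 136 Tcra and Tcrd V segments had the high-coordinate end covered in both DN and neither DP list. As DN 2 covered 0 of these ends, that share could only be 0%. Among the Tcra and Tcrd segments 2.94% had that end covered in both DP and neither DN list. Of the 1026 low and high ends of all V segments outside the 34, Trbv31 among them, 0% were covered in both DN and neither DP list. This set includes both ends of the 136 Tcra and Tcrd segments, where DN 2 covered 0, so that part was fixed as well. It also includes ends of immunoglobulin V segments. The count of 3 was 5 without DP 2 and 6 without DN 2. None of the 34 segments had the D-facing end covered in both DP lists.

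Trbv2 (41047556 to 41047995) had 0 peaks within 500 bp in both DP lists, against 1 in each DN list. Just past that limit, DP 1, DP 2 and DN 1 had a peak that ended 606, 556 and 556 bp before the segment. The DN region ran from 41047901 to 41048300 and so from inside the segment to 305 bp past it. In both DN lists the peak had the same coordinates. Its rank was modest: counted from the best p-value, it stood at the 56.3 percentile of its list in DN 1 and the 77.9 percentile in DN 2. It also lay within 500 bp of the next segment, Trbv3.

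Trbv24 (41218091 to 41218557) likewise had 0 peaks within 500 bp in both DP lists, against 1 in each DN list. Its DN region, 41218251 to 41218900, reached 343 bp past the D-facing end. It was among the better peaks of the interval, at the 22.5 percentile in DN 1 and the 13.7 percentile in DN 2. The nearest peak in DP 2 lay 1941 bp from the segment, and the nearest in DP 1 lay 23191 bp away.

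Trbv12-1 (41113567 to 41114067) carried a region on each side. All 4 lists held a region on its distal side, 41112751 to 41113700, which began 816 bp before the segment. The distal end lay inside a peak in DP 1, DP 2 and DN 1, while the DN 2 peak ended 317 bp before the segment. A second region, 41113901 to 41114500, ran over the D-facing end to 433 bp past it and was present in DN 1 and DN 2 and absent from DP 1 and DP 2. The best peak within 500 bp stood at the 24 and 6.98 percentile in DP 1 and DP 2, against 19.5 and 32.1 in DN 1 and DN 2, and it was the distal one in all lists but DN 2.

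Trbv5 (41062359 to 41062803) carried separate regions at its ends. The distal one, 41062001 to 41062500, was held by DN 1 and DN 2 and by neither DP list. The region over the D-facing end, 41062601 to 41063200, was held by DP 1, DN 1 and DN 2, with 1 peak in DP 1, against 1 and 3 peaks in DN 1 and DN 2. DP 2 had no peak within 500 bp of Trbv5.

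At Trbv3 and Trbv16 the D-facing end was covered in DP 2 and both DN lists. The Trbv3 region ran from 41048551 to 41049100, with its best peak at the 53 percentile in DP 2, against 29.8 and 77.9 in DN 1 and DN 2. The Trbv16 region ran from 41151851 to 41152550, with its best peak at the 53 percentile in DP 2, against 15.7 and 46.3 in DN 1 and DN 2. DP 1 had no peak within 500 bp of either segment.

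The remaining D-facing ends were covered in fewer lists. Trbv19 was covered in DP 2 and DN 2 (41178801 to 41179300), at the 53 percentile in DP 2, against 24.5 in DN 2. Trbv13-2, Trbv20 and Trbv23 were covered there in DN 1 alone, and Trbv26 in DN 2 alone. The Trbv26 peak, at the 8.77 percentile, was the best ranked of all DN 2 peaks in the interval.

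Of the segments, 2 were held by all 4 lists, Trbv12-1 and Trbv12-2, which belong to 1 family and so may share reads. At both, the shared region, merged over the lists, lay on the distal side. The region at Trbv12-2 ran from 41118101 to 41119100 and began 763 bp before the segment, close to the 816 bp found at Trbv12-1. Its distal end lay inside a peak in DP 2 and DN 1, while the DP 1 and DN 2 peaks ended 64 and 164 bp before Trbv12-2. At Trbv12-2 the best peak stood at the 24 and 13.2 percentile in DP 1 and DP 2, against 13.1 and 11.9 in DN 1 and DN 2. It was the best ranked DN 1 peak of the interval, and Trbv12-1 had the best ranked DP 2 peak. The third member, the pseudogene Trbv12-3, had no peak within 500 bp in any list, and the nearest lay 1825 bp away.

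Other distal ends were covered in 1 stage or in parts of both. At Trbv23 a region over the distal end (41215801 to 41216350) was held by DP 2, DN 1 and DN 2. Trbv4 and Trbv13-3 had a peak over the distal end in DP 2 alone, and Trbv17 in DN 1 alone. At Trbv1 (40891296 to 40891885), the first segment, a region from 40890451 to 40891550 was held by DP 1, DN 1 and DN 2. The distal end lay inside a peak in DP 1 and DN 1 only, and the DN 2 peaks ended 196 and 96 bp before the segment. The midpoints of the peaks in this region lay just before the interval, so they count for the segment and not for the interval.

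By class, 0 of the 34 segments were held within 500 bp by both DP lists and neither DN list, and 2 (5.88%), Trbv2 and Trbv24, by both DN lists and neither DP list. Of the 513 other V segments, 9.75% were in the DP class and 0.195% in the DN class. These 513 include Trbv31, itself held by all 4 lists, and the segments of the immunoglobulin loci. Segments held by all 4 lists made up 5.88% here, against 0.585% of the other V segments, and 50% of Trbv segments had a peak in at least 1 list, against 25.5%. The DP class had 2 members without DP 1. The DN class had 4 members when DP 1 was left out, 5 for DP 2 and 6 for DN 2, and the count held by all lists was 5 without DP 1 and 4 without DP 2. The comparison is a description, since segments of 1 locus are not independent.

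The V segments of Tcra and Tcrd showed the reverse balance of stages. Of these 136 segments, most of which also face their J segments with the high-coordinate end, 25 and 36 were held in DP 1 and DP 2, against 4 and 1 in DN 1 and DN 2. The low-coordinate, distal end was covered at 17 and 24 of them in DP 1 and DP 2, against 2 and 0 in DN 1 and DN 2. The high-coordinate end was covered at 7 and 12 in DP 1 and DP 2, against 2 and 0 in DN 1 and DN 2. Within the DP lists, distal ends thus outnumbered the opposite ends at Tcra and Tcrd V segments and, with the counts given above, at Tcrb V segments. Within the DN lists, the D-facing ends outnumbered the distal ends at Tcrb, while the ends were equal in number at Tcra and Tcrd, where few segments were held. The difference between the loci was not tested.

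When overlapping peaks of the 4 lists were merged, the interval held 31 regions. Of these, 0 were in both DP and neither DN list, against 7.44% of the 107621 regions of the genome, and 5 (16.1%) were in both DN and neither DP list, against 2.51%. All 4 lists shared 3 regions (9.68%, against 7.39% in the genome). A single list held 15 regions, 5 in a DP and 10 in a DN list. The count of 5 was 8 without DP 2 and 13 without DN 2, and that of 3 was 6 without DP 1.

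More than 500 bp from any segment, 5 regions were held by 2 or more lists, and 1 of them by both DN lists alone. The third region shared by all lists lay between Trbv1 and the gene Prss58 (40893451 to 40894000), 1566 bp past Trbv1, at the 64 and 25.8 percentile in DP 1 and DP 2, against 14.3 and 77.9 in DN 1 and DN 2. Before Trbv2 a region (41046501 to 41047000) was held by DP 1, DP 2 and DN 1. Between Trbv11 and Trbv12-1 a region (41108751 to 41109350) was held by DP 2 and DN 1, and one past Trbv20 (41194451 to 41194900) by DP 1 and DN 2. The DN region lay 1185 bp past Trbv14 (41136801 to 41137450), which both DN lists and neither DP list held, with a best percentile of 56.3 in DN 1 and 16.7 in DN 2.

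**Figure D4:**
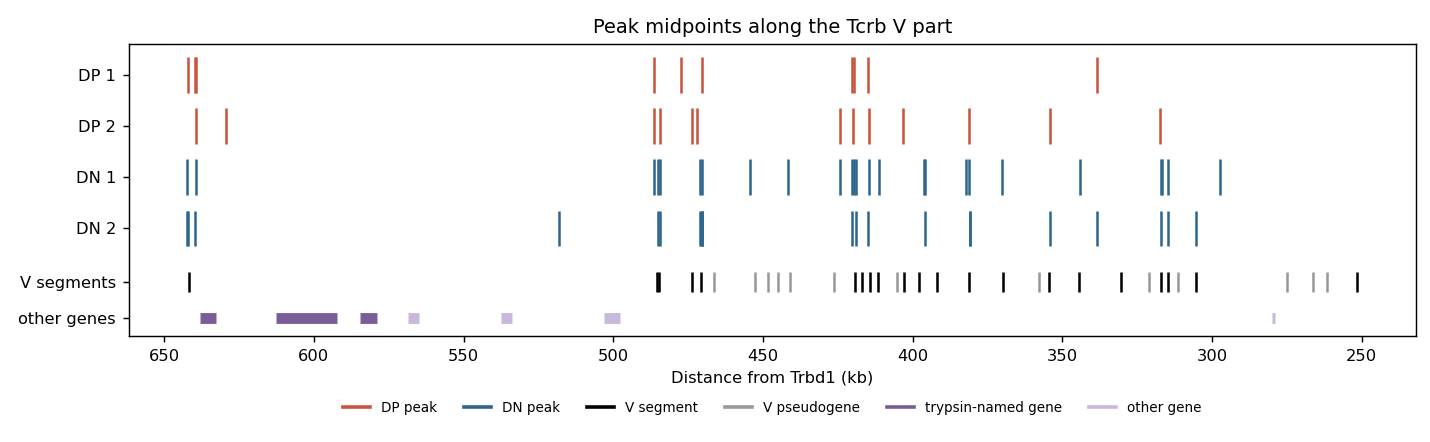
Midpoints of all peaks at the Tcrb V part in each list (rows, DP above DN) by distance from Trbd1 in kb, with the V segments and the other annotated genes below. Peaks gather between Trbv2 and Trbv26, and 0 lie in any of the other genes.

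No peak of any list lay in a trypsinogen gene between the segments. By symbol or synonym, 3 genes between Trbv1 and Trbv2 carry a trypsin name: Prss58, 1700074P13Rik (Tryx5) and the pseudogene Gm4744 (Tryx4). Each held 0 peaks in all 4 lists, and the nearest peak lay 1262, 16337 and 44362 bp away. The other annotated genes among the segments, 1810009J06Rik, Gm2663, 2210010C04Rik and Gm2719, also held 0 peaks in every list. Whether any of them is a trypsinogen gene cannot be told from the names. Between Trbv1 and Trbv2 there were 3 peaks in each DP list, against 2 in each DN list, all outside these genes. In DP 1, 2 of the 3 overlapped each other (40893451 to 40893750 and 40893551 to 40894000). A stretch of 111 kb there (40904101 to 41014950) held no peak of any list.

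Of Trbv1 to Trbv30, the segments nearest to the D segments had no peak. Trbv31, which lies closer to the D segments on their other side and is not among the 34, had 2 peaks within 500 bp in each DP list, against 1 in each DN list. Of the 10 segments from Trbv17 to Trbv26, 0 and 2 were held in DP 1 and DP 2, against 4 in each DN list. Of the 4 segments from Trbv27 to Trbv30, 0 were held in any list. They lie in a stretch of 269 kb without a peak of any list (41235901 to 41505300). Trbv30, annotated as a V segment, was 45476 bp from the nearest peak, in DN 1. Beyond the stretch the D segments were held by every list, with the best peak at Trbd1 at the 8.06 and 5.59 percentile in DP 1 and DP 2, against 4.73 and 7.75 in DN 1 and DN 2. Those are better ranks than the best V peak of the same list, which stood at 24 and 6.98 in DP 1 and DP 2, against 13.1 and 8.77 in DN 1 and DN 2.

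Ranks of V peaks within their lists were middling in both stages. The median peak of the interval stood at the 53.1 and 53 percentile in DP 1 and DP 2, against 35.4 and 46.3 in DN 1 and DN 2. Peaks tied at the weakest p-value of their list numbered 2 in each DP list, against 3 and 7 in DN 1 and DN 2. In DN 2 these 7 made up 36.8% of its peaks there, and 44.2% of the whole DN 2 list was tied at that value.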

How the data were processed

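The submitters' processing notes name the build mm10 and the tools Bowtie2 and Picard, without roles or versions. PeakDEck is known only from the names of the deposited lists, and for its settings, the read filters and reads that match several V segments nothing is given in the sources used here. The deposited lists, 1 per sample, give each peak a p-value of the authors, used only to rank peaks within a list (percentile, ties at their mean rank). Peak starts are multiples of 50 bp, and the narrowest peak spans 300 bp.

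Segments came from a GRCm38 (mm10) table of RefSeq genes. Its genes have no descriptions, so trypsinogen genes were taken by symbol or synonym. Peaks sharing at least 1 bp were merged. The rule for naming takes every segment and trypsinogen gene with a peak and every region held by 2 or more lists. Members, lists and the end comparison were chosen with earlier results of these data known; the end comparison was added after seeing the peaks. Equal replicate numbers do not pair the samples by label, and their deviations from the group means (region present or absent) correlated at 0.0207 over 107621 regions. Of the planned DP markers, 1 is not reported here. Planned promoter motifs and printed promoters were not analysed here. The steps were tested on simulated peaks. Python 3.11.15, numpy 2.4.6, pandas 2.3.3 and matplotlib 3.10.9 were used.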

Additional observations from a re-analysis of the deposited data

How the results depend on the processing

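The DP minus DN differences kept their sign in every setting run for peaks of the interval, held segments and D-facing ends. Leaving out 1 list gave -13 to -8 peaks, -8 to -4 held segments and -7.5 to -5.5 D-facing ends, and the top 50% of each list gave -7, -6 and -5. With the replicate number as a replicate block the values were -10.5, -6 and -6.5 (exact sign-flip p = 0.5, the smallest that 2 pairs allow). They could not move, since the mean of the paired differences equals the difference of the means. The block changed no call, and none could change with p bounded at 0.333 and 0.5. Distal ends ranged from -3.5 to 1.5 when 1 list was left out (0.5 without DP 1, 1.5 without DN 1). In the settings that kept all lists they stayed negative, with -2.5 for ends within 100 bp of a peak, against -6.5 for D-facing ends. Classes of few members moved more, partly by construction, since fewer lists then have to meet the rule. When 1 list was left out, counts ran from 0 to 2 for segments of both DP and neither DN list, 3 to 6 for the opposite class, 2 to 5 for segments in all lists, 6 to 13 and 3 to 6 for DN and shared regions, and 4 to 6 for D-facing ends of DN lists alone. With lists limited to the shortest length, DN segments numbered 5, DN regions 8 and D-facing ends of DN lists alone 5. In the top 50%, DN regions numbered 3 and shared regions 1. Within 1000 bp, DN segments numbered 1 and shared segments 4, while overlap alone left 1 shared segment. Merging within 250 bp left 2 DN regions. Where no construction is named, the cause was not tested. Peaks in trypsinogen genes stayed at 0 throughout, which was fixed in advance, since the settings only cut, left out, rescaled or paired lists that held 0 there. Depth is unknown, so no limit on missed peaks can be given.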
